A study of Mus musculus and blank sample with 91 samples.

Results

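Fecal bacteria of 18 mice were compared on day -2 relative to immunization (-2 dpi), before any mouse had been immunized. These 18 samples were taken as all those that the labels give as day -2, out of 91 labelled samples, of which 89 came from mice. Of the 18 female C57BL/6 mice (C57BL/6J aged 8 weeks per the study's methods), 6 were to stay naïve and 6 were to receive Complete Freund's Adjuvant alone (CFA group). The other 6 were to receive myelin oligodendrocyte glycoprotein (MOG) peptide in the same adjuvant together with pertussis toxin (EAE group). Complete Freund's Adjuvant is an oil emulsion with killed mycobacteria, and MOG immunization brings on experimental autoimmune encephalomyelitis (EAE), a model of multiple sclerosis. At -2 dpi the groups therefore differed by plan only, and naïve, CFA and EAE below name what the mice were to become. Mice were kept at 2 to 3 per cage and a whole cage received the same treatment, but the labels do not say which mice shared a cage. Cage and group cannot be told apart, and since cage mates are not independent, p-values over mice may be too small.

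Mice eat each other's feces, so cage mates tend to share gut bacteria, and whole genera can be present in some cages and not in others. The bacteria of the mouse gut fall into a few large families with known roles. Lactobacillaceae ferment sugars to lactic acid. Lachnospiraceae and Ruminococcaceae are anaerobic Clostridia that break down fiber, and several of their genera, Anaerostipes and Roseburia among them, release butyrate, a fuel of the colon lining. Prevotellaceae, Porphyromonadaceae and Muribaculaceae are Bacteroidales that digest complex carbohydrates, Erysipelotrichaceae here is mostly Turicibacter, a spore former of the intestine, and Akkermansia, a genus of Verrucomicrobiaceae, lives on the mucus of the gut wall.

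The measurement was a count of reads per ASV (amplicon sequence variant, a distinct sequence of the bacterial 16S rRNA gene between regions V3 and V4). Total counts lay between 36075 and 87457 per mouse with a median of 60725.5. They were 36075 to 87457 in naïve, 54025 to 72482 in CFA and 37156 to 64953 in EAE mice, so a taxon at 3 counts, used as a floor, would make up 0.00343% to 0.00832% of a sample. These limits cover counting error only. No genus was seen that low, as the lowest genus share above 0 was 0.0364%. Folds given below as "at least" hold against the floor only and would be smaller against that share. Values are percents of a sample's counts, so that a higher share of a taxon and a lower amount of all others cannot be told apart. Library numbers ran in blocks, 2 to 7 for CFA, 8 to 13 for EAE and 14 to 19 for naïve mice, so library order and group cannot be told apart either. The library of EAE mouse 550, numbered next to those of the CFA mice, stood nearer to CFA than to EAE mice. Results for families and genera that rest on it are given without it too, while merged sequences were not fitted without it. Neither were fits that left out another mouse. Across the 18 mice, 20 of 26 families, 56 of 73 genera and 709 of 2295 ASVs of the count table were seen.

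Most ASVs of the table still carried the letters of both primers (2274 of 2295), whose mixed positions split 1 bacterial sequence into many ASVs. Without the primers those 2274 came down to 486 distinct sequences, called merged sequences below and named after their most abundant ASV. At -2 dpi the 709 ASVs made up 193 merged sequences. Of these, 7 contained ASVs under more than 1 genus name, together 18.5% of all counts. All counts of Barnesiella (24427 counts in 9 mice) belonged to the same merged sequence as 96.9% of those of Prevotella. All counts of Stomatobaculum (3549 counts) belonged to the same merged sequence as part of Lachnospiraceae_NK4A136-Clostridium XlVa. Presence or absence of these genera as named thus also depends on the letters of the primer, and the main results for genera are given for both ways of naming.

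The community that all mice shared was led by lactic acid bacteria. Lactobacillaceae took most counts on average, with 34.1% ± 12.4 in naïve, 38.2% ± 11.9 in CFA and 31.5% ± 8.26 in EAE mice (SD, n = 6 each). Lachnospiraceae followed with 18.0% ± 12.6, 21.7% ± 6.48 and 17.5% ± 8.82, Erysipelotrichaceae with 16.9% ± 8.03, 11.6% ± 5.59 and 18.1% ± 10.3, and Prevotellaceae with 15.4% ± 4.40, 14.3% ± 4.10 and 11.4% ± 5.65 in the same order. Ruminococcaceae made up 4.86% ± 0.536, 5.87% ± 2.99 and 6.31% ± 2.71. For each of these 5 families the ranges of the groups overlapped, and none passed the test across families in any comparison. Prevotellaceae here leaves out the ASVs of its main merged sequence that are named Barnesiella, and families were not recomputed by merged sequence. Clostridiaceae stood at 0.937% ± 0.850, 1.62% ± 0.863 and 1.45% ± 1.08, and Oscillospiraceae at 0.851% ± 0.418, 1.52% ± 0.748 and 1.26% ± 0.749, again without a call.

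**Figure D1:**
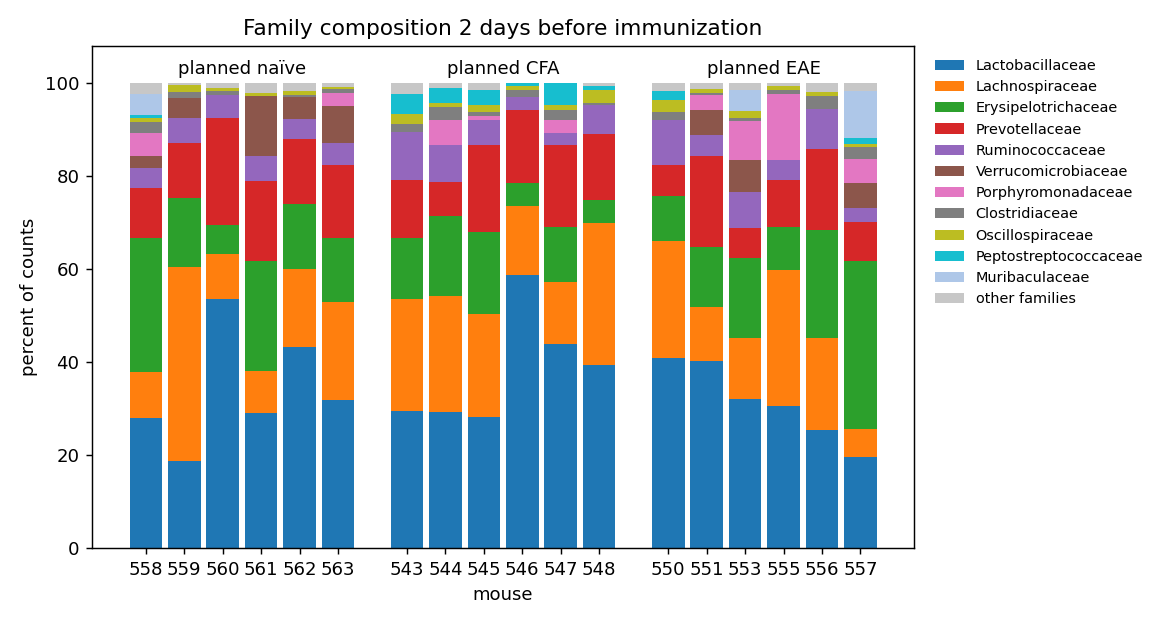
Percent of counts (vertical axis) taken by the 11 families of highest mean percent in each of the 18 mice (horizontal axis, by mouse number) at -2 dpi, with all other families in grey. Lactobacillaceae (18.7% to 58.7%) are in every bar, while Verrucomicrobiaceae appear in naïve and EAE mice and in none of the 6 CFA mice.

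A core of 6 families had counts in all 18 mice, namely the 5 largest and Oscillospiraceae, and these took 73.6% to 98.3% of a mouse's counts (median 90.97%). At the genus rank the core also numbered 6, with 59.98% to 86.3% of counts (median 69.4%). Lactobacillus ranged from 18.7% to 58.7%, a 3.14-fold span. Turicibacter lay between 4.53% and 35.9% (mean 15.2%) and Prevotella between 6.36% and 22.96% (mean 13.7%). Medians of Prevotella were 14.8% in naïve, 14.9% in CFA and 9.24% in EAE mice, with overlapping ranges. Named by merged sequence, which takes in Barnesiella, Prevotella medians were 16.4%, 14.9% and 16.1%, so the lower median of EAE mice was seen only with the names as given. The least even core genus was Lachnospiraceae_NK4A136-Clostridium XlVa, which spanned 22.6-fold, from 0.483% to 10.9%. Lachnospiraceae_NK4A136/Hungatella took 0.895% to 3.90% and Oscillibacter, an anaerobe of Oscillospiraceae, 0.382% to 2.64%. Both extremes of Lachnospiraceae_NK4A136-Clostridium XlVa were found in the naïve group, so its span within a group was as wide as over all mice. Named by merged sequence, 5 core genera were left with 60.1% to 84.2% of counts, since Lachnospiraceae_NK4A136/Hungatella then had counts in 15 of 18 mice.

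**Figure D2:**
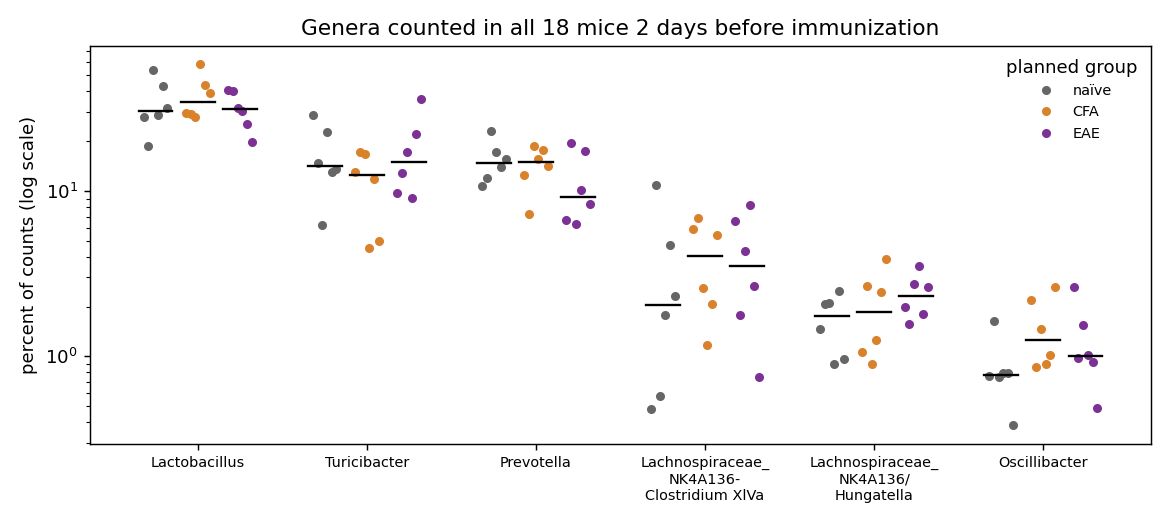
Percent of counts (log scale) of the 6 genera with counts in all 18 mice at -2 dpi, a point per mouse in grey for naïve, orange for CFA and purple for EAE mice and a line at the median of 6. The groups overlap in each genus, and Lactobacillus lies above 18% in every mouse.

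At the finest rank, the core was a single species. All 15 ASVs counted in 18 of 18 mice were named Lactobacillus johnsonii, a common lactic acid bacterium of the rodent gut, and together took 12.6% to 39.8% of counts (median 19.1%). These 15 ASVs belong to 1 merged sequence, L. johnsonii ASV 1, which gathered 28 ASVs and took 18.7% to 58.6%. Only 1 other merged sequence, Turicibacter sanguinis ASV 3, was counted in all 18 mice (4.53% to 35.9%). In contrast, 474 of the 709 ASVs (66.9%) were seen in a single mouse, and these took 16.7% of all counts. Of merged sequences, 95 of 193 were seen in a single mouse, with 1.94% of counts. The Prevotella sequence that takes in Barnesiella, Prevotella_NA ASV 11, was counted in 17 of 18 mice at 11.9% to 24.3% and had no count in EAE mouse 550.

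CFA mice differed from naïve mice by whole genera that were either present or at 0. Akkermansia had no count in any of 6 CFA mice, and Anaerostipes and Stomatobaculum had none in any of 6 naïve mice. These 3 genera, 5.36% of the 56 seen, were the ones without a count in 1 entire group and with counts in at least 4 mice of another, and at the family rank the rule found Verrucomicrobiaceae, 1 of 20 (5%). In edgeR's quasi-likelihood test with Benjamini-Hochberg adjustment, 2 of 23 families tested (8.7%) and 5 of 65 genera (7.69%) differed between CFA and naïve mice at an adjusted p under 0.05. The families were Verrucomicrobiaceae (adjusted p = 0.000728) and Peptococcaceae (adjusted p = 0.00665), both lower in CFA mice. In a fit of only the 18 samples Peptococcaceae was no longer called (edgeR adjusted p = 0.0549, and 0.0674 for EAE against CFA mice). By exact permutation tests on percents, 0 families and 0 genera passed adjustment. With 6 against 6 mice, the smallest p of this two-sided test is 0.00216. Anaerostipes and Coprococcus/Eubacterium_F reached it between CFA and naïve mice, and their adjusted p was 0.0703. A single genus without overlap thus could not pass, and the 0 calls of genera do not show that the groups were alike.

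Akkermansia took 0%, 4.50% and 12.8% of counts as lowest, median and highest value in naïve mice, 0% in all CFA mice, and 0%, 2.74% and 7.01% in EAE mice. It was thus counted in 5 naïve, 0 CFA and 4 EAE mice, with naïve mouse 560 and EAE mice 550 and 555 also at 0. Against the floor of 3 counts per library, it was at least 1149-fold lower in CFA than in naïve mice (edgeR adjusted p = 0.000456, two-sided exact permutation p = 0.0152, adjusted p = 0.197). EAE mice exceeded CFA mice at least 639.4-fold (edgeR adjusted p = 0.00123, exact permutation p = 0.0606). Both calls remained in 12 of 12 fits that left out a mouse. The CFA group stayed at 0 in each of these fits, so they say little on how far the calls rest on that 0. All Akkermansia counts were of A. muciniphila. Only 2 of 709 ASVs (0.282%) met the absence rule, A. muciniphila ASV 42 and ASV 102, which were each counted in 4 naïve mice and in no CFA or EAE mouse. Both fall in the same merged sequence, A. muciniphila ASV 14, which EAE mice did hold.

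Anaerostipes, which turns lactate and acetate into butyrate, showed the reverse. It had no count in any naïve mouse, while CFA mice held 1.98%, 4.52% and 5.71% as lowest, median and highest value. Of EAE mice, only mouse 550 had counts, at 3.92%. No CFA mouse overlapped a naïve mouse, which held for 2 of 56 genera in this comparison (3.57%), and the share was at least 809.9-fold higher in CFA mice (edgeR adjusted p = 0.0019, exact permutation p = 0.00216, the smallest that 6 against 6 mice allow, adjusted p = 0.0703). Anaerostipes was also the 1 genus of 65 (1.54%) called between EAE and naïve mice (edgeR adjusted p = 0.0225). That call rests on mouse 550 (adjusted p = 1 without it), was lost without any of naïve mice 559, 560, 562 and 563, and had an exact permutation p of 1.

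Stomatobaculum, a butyrate-forming genus of Lachnospiraceae, was counted in 5 CFA mice at up to 1.40% (median of 6 mice 0.780%), in EAE mouse 550 at 0.765% and in no naïve mouse. It was at least 149.5-fold higher in CFA than in naïve mice (edgeR adjusted p = 0.00745, exact permutation p = 0.0152, adjusted p = 0.197). When each ASV took the genus of the most abundant ASV with its merged sequence, Stomatobaculum joined Lachnospiraceae_NK4A136-Clostridium XlVa, a core genus, and was no longer among the absent genera, of which 2 of 55 (3.64%) were left (Akkermansia and Anaerostipes). Genera so named gave 4 edgeR calls of 63 between CFA and naïve mice (6.35%), 1 between EAE and naïve mice (1.59%) and 3 between EAE and CFA mice (4.76%), and 2 of 55 (3.64%) did not overlap between CFA and naïve mice. The merged sequence of Stomatobaculum, Lachnospiraceae_NK4A136_NA ASV 152, nevertheless kept the pattern, with counts in 0 naïve, 5 CFA and 1 EAE mouse, mouse 550.

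Peptococcus-rc4-4, a genus of anaerobic cocci and the part of Peptococcaceae seen here, was counted in 3 naïve mice (0.612% to 1.15%), 3 EAE mice (0.620% to 0.945%) and 0 CFA mice. It was at least 100.8-fold lower in CFA than in naïve mice (edgeR adjusted p = 0.00846, exact permutation p = 0.182) and at least 81.55-fold lower than in EAE mice (edgeR adjusted p = 0.0332, exact permutation p = 0.182). The second of these calls was lost without any 1 of the 6 CFA mice. The family Peptococcaceae has the same counts and was adjusted over 23 taxa in place of 65. It stayed called in 12 of 12 such fits (highest edgeR adjusted p = 0.0317), with the CFA group at 0 in each. Muribaculum, a carbohydrate-degrading genus of Muribaculaceae, was at 4.56% in naïve mouse 558, at 4.45% and 10.2% in EAE mice 553 and 557, and at 0 in the other 15. It was called lower in CFA than in naïve mice (edgeR adjusted p = 0.0422), a call that rests on mouse 558 alone (adjusted p = 1 without it, exact permutation p = 1 with it).

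**Figure D3:**
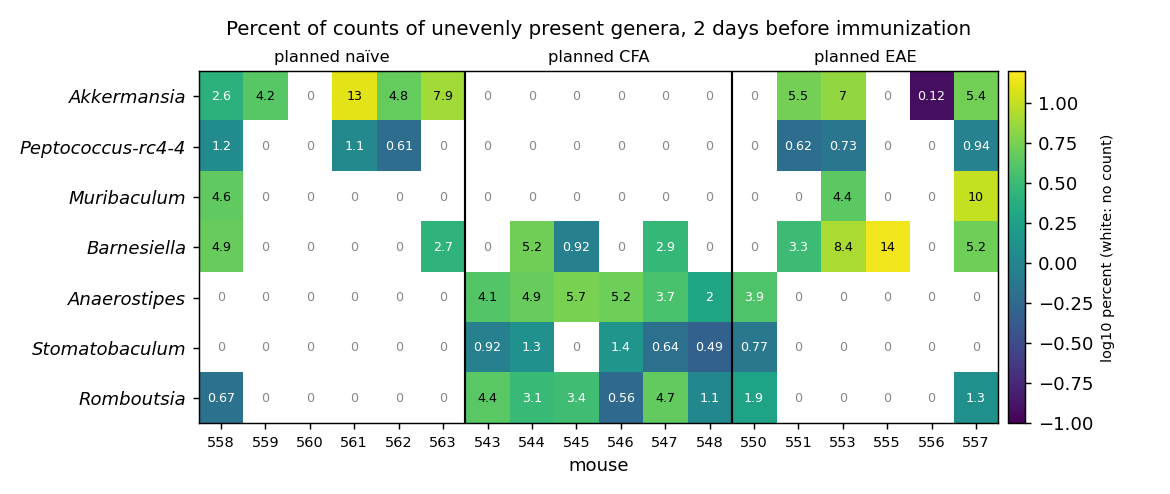
Percent of counts of 7 genera (vertical axis) in each of the 18 mice (horizontal axis, by mouse number and planned group), coloured by log10 percent, with the percent written in each cell and white cells at 0. Akkermansia, Peptococcus-rc4-4 and Muribaculum are white in all 6 CFA mice and Anaerostipes and Stomatobaculum in all 6 naïve mice, and EAE mouse 550 holds Anaerostipes, Stomatobaculum and Romboutsia like most CFA mice.

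Romboutsia, Coprococcus/Eubacterium_F and Eubacterium, chosen with their values seen, were uneven between groups without a call by edgeR. Romboutsia, the genus of Peptostreptococcaceae seen here, was counted in 6 CFA mice (lowest 0.565%, median 3.24%, highest 4.68%), in naïve mouse 558 (0.666%) and in EAE mice 550 (1.90%) and 557 (1.27%). CFA minus naïve mice came to a log2 fold change of 4.38 ± 2.40 (SE, edgeR adjusted p = 0.339, exact permutation p = 0.00433, adjusted p = 0.0938). Without naïve mouse 558 the edgeR adjusted p for Romboutsia was 0.00409 between CFA and naïve mice and 0.0289 between EAE and naïve mice. As mouse 558 was the only naïve mouse with counts, these fits set the other groups against a naïve group at 0. They do not show a difference with all mice kept. The value for EAE mice rests on mice 550 and 557 and was not fitted without mouse 550. Coprococcus/Eubacterium_F, a group of butyrate producers, took 1.52% to 3.63% in the 6 naïve mice and at most 1.17% in CFA mice, of which 4 had counts. The groups did not overlap (exact permutation p = 0.00216, adjusted p = 0.0703), but the edgeR adjusted p was 1. Eubacterium was counted in 6 naïve mice (0.309% to 0.951%), in 2 CFA mice (at most 0.581%) and in 6 EAE mice (0.396% to 1.71%). Its edgeR adjusted p was 0.787 for CFA against naïve and 0.719 for EAE against CFA mice (exact permutation p = 0.0216 and 0.0108, adjusted p = 0.235 and 0.352).

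By edgeR, Akkermansia and Peptococcus-rc4-4 were higher in EAE than in CFA mice, with exact permutation p of 0.0606 and 0.182. In a fit of only the 18 samples Akkermansia was still called, and Peptococcus-rc4-4 was not (edgeR adjusted p = 0.157). Between EAE and naïve mice, edgeR called 0 of 23 families (0%), with 3 at an unadjusted p under 0.05, 2 called by DESeq2 and 0 by permutation, and the 1 genus of 65 above. Against CFA mice, EAE mice were higher in 2 of 23 families (8.7%), Verrucomicrobiaceae (edgeR adjusted p = 0.00173) and Peptococcaceae (edgeR adjusted p = 0.0129), and in 2 of 65 genera (3.08%), Akkermansia and Peptococcus-rc4-4. Muribaculum missed the threshold in this comparison (edgeR adjusted p = 0.0603) and passed it with DESeq2 (adjusted p = 0.00208), with total counts only (edgeR adjusted p = 0.0389), with no filter (edgeR adjusted p = 0.0246) and with genera named by merged sequence (edgeR adjusted p = 0.0331). Porphyromonadaceae, which here is Barnesiella, took 1.26% ± 2.07, 1.51% ± 2.15 and 5.17% ± 5.46 in naïve, CFA and EAE mice (SD, n = 6) with counts in 2, 3 and 4 mice, and no comparison passed. As Barnesiella shares its merged sequence with most of Prevotella, the split between Porphyromonadaceae and Prevotellaceae also depends on the letters of the primer. Of the 56 genera, 37 were seen in all groups, 4 in naïve and EAE mice only, 5 in naïve and CFA mice only and 4 in CFA and EAE mice only. CFA mice alone held 4, naïve mice alone 1 (Enterococcus) and EAE mice alone 1 (Lachnospiraceae_UCG-001). Phocea/Angelakisella was counted in 3 CFA mice, and each of the other 5 in a single mouse.

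Single ASVs gave no calls with edgeR in any comparison (0 of 648, 0%), although 235, 190 and 239 had an unadjusted p under 0.05 for CFA against naïve, EAE against naïve and EAE against CFA mice. DESeq2 called 152, 106 and 156 of them. Permutation called 0 in each, where a single ASV could not have passed adjustment. For merged sequences, edgeR called 11 of 202 (5.45%) between CFA and naïve mice, 7 of them higher and 4 lower in CFA mice, 1 (0.495%) between EAE and naïve mice and 1 (0.495%) between EAE and CFA mice. The last was A. muciniphila ASV 14 (edgeR adjusted p = 5.73e-05), and Anaerostipes_NA ASV 98 was the call between EAE and naïve mice (edgeR adjusted p = 0.0254). Among EAE mice, only mouse 550 had counts of Anaerostipes_NA ASV 98, so that call rests on its library. Percents did not overlap for 3 of 193 merged sequences (1.55%) between CFA and naïve mice and for 1 (0.518%) between EAE and CFA mice. Permutation gave 0 calls, but even sequences without overlap were too few to pass adjustment.

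7 of 193 merged sequences (3.63%) had no count in a whole group and counts in at least 4 mice of another, and for 5 of these the naïve group was the empty one. Beside Anaerostipes_NA ASV 98 and Lachnospiraceae_NK4A136_NA ASV 152 they were Lachnospiraceae_NK4A136_NA ASV 141, Roseburia 14-2 ASV 224 and Acutalibacter muris ASV 279. Lachnospiraceae_NK4A136_NA ASV 141 was counted in 6 CFA mice at 1.18% to 2.68% and in 1 EAE mouse, mouse 550, at 2.25%. Roseburia 14-2 ASV 224 was counted in 5 CFA mice at up to 2.00% and in 1 EAE mouse, again mouse 550, at 2.25%. Acutalibacter muris ASV 279 was counted in 6 CFA mice at 0.226% to 1.21% and in 3 EAE mice at up to 0.941%. The genus Roseburia as a whole had a median of 1.12% in naïve, 4.68% in CFA and 1.91% in EAE mice with overlapping ranges (edgeR adjusted p = 1 in each comparison). The sequence absent from EAE mice was Flintibacter butyricus ASV 525, counted in 5 CFA mice at up to 0.774% and in 1 naïve mouse at 0.212%, and the one absent from CFA mice was A. muciniphila ASV 14.

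EAE mouse 550 differed from the rest of its group in some taxa. Alone among EAE mice, it held Anaerostipes and Stomatobaculum and lacked the main Prevotella sequence of the other 17 mice. It also held Romboutsia, as did EAE mouse 557, and had no Akkermansia, as was so for EAE mouse 555. Bray-Curtis dissimilarity runs from 0 for the same genus percents to 1 for no shared genus. Mouse 550 had a mean of 0.243 to CFA mice, 0.361 to the other EAE mice and 0.364 to naïve mice. Its nearest mouse was CFA mouse 543 at 0.188. EAE mouse 555 was also nearer to CFA mice (0.339) than to the other EAE mice (0.365), and mouse 557 was further from its group (0.4365). The library number of mouse 550, 8, directly follows those of the CFA mice, and the part of library order in this was not tested. Whether this library comes from the labelled mouse was not tested either, so each value of the EAE group that rests on it, such as the Anaerostipes call, depends on that label. Without mouse 550, edgeR called 5 genera between EAE and CFA mice instead of 2, among them Anaerostipes (adjusted p = 0.00288), Stomatobaculum (adjusted p = 0.00944) and Muribaculum (adjusted p = 0.0313), and 0 between EAE and naïve mice.

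Genus composition as a whole separated the groups little compared with the spread between mice. CFA and naïve mice were 0.348 apart on average and 0.305 within groups, a difference of 0.0423 (one-sided exact permutation test, p = 0.0238, adjusted p = 0.0714). EAE and CFA mice differed by 0.0285 (exact permutation p = 0.0584, adjusted p = 0.0877; 0.0578 and adjusted p = 0.0195 without EAE mouse 550) and EAE and naïve mice by -0.0132 (exact permutation p = 0.81, adjusted p = 0.81). When only presence of a genus was counted (Jaccard dissimilarity), the difference was 0.0848 between CFA and naïve mice (exact permutation test, adjusted p = 0.00649), 0.0412 between EAE and CFA mice (adjusted p = 0.026) and -0.0042 between EAE and naïve mice (adjusted p = 0.595). Merged sequences by percent gave 0.061 (exact permutation test, adjusted p = 0.0195), 0.0454 (adjusted p = 0.0227) and -0.0173 (adjusted p = 0.931) for these pairs. In both of these measures the comparisons with CFA mice passed the threshold, and that of EAE with naïve mice did not.

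Nearest mice were often of another group, but each mouse had more mice of other groups than of its own to be near to. Counts of nearest mice are a description and were not tested against chance. The nearest mouse by genus percents was of the same group for 4 of 18 mice, 3 of them CFA and 1 naïve. All 6 CFA mice were on average closest to the CFA group, and this held for 2 naïve mice and 1 EAE mouse. With merged sequences it held for 6 CFA, 4 naïve and 0 EAE mice and with Jaccard for 6, 5 and 2, and under either measure the nearest mouse was of the same group for 7 of 18. The closest pair of all was naïve mouse 562 and EAE mouse 551 at 0.133. EAE mice 553 and 557, which held Muribaculum, both had naïve mouse 558, the only other mouse with that genus, as their nearest mouse, at 0.235 and 0.211. Muribaculum is part of this measure, so sharing it by itself brings these mice nearer.

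Mice of the CFA group were the closest to one another on average. The mean dissimilarity of a mouse to the other 5 of its group was 0.332 ± 0.0516 in naïve, 0.279 ± 0.0267 in CFA and 0.356 ± 0.0455 in EAE mice (SD, n = 6). EAE mice were more spread than CFA mice by 0.0771 (two-sided exact permutation test, p = 0.00649, adjusted p = 0.0195), which no longer passed without EAE mouse 557 (0.0366, adjusted p = 0.0714) or without CFA mouse 547 (0.0661, adjusted p = 0.0714). CFA mice were less spread than naïve mice by -0.0537 (exact permutation p = 0.0476, adjusted p = 0.0714), and EAE and naïve mice differed by 0.0234 (exact permutation p = 0.426, adjusted p = 0.426). The 6 values of a group share pairs of mice, so these p-values are a guide only.

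**Figure D4:**
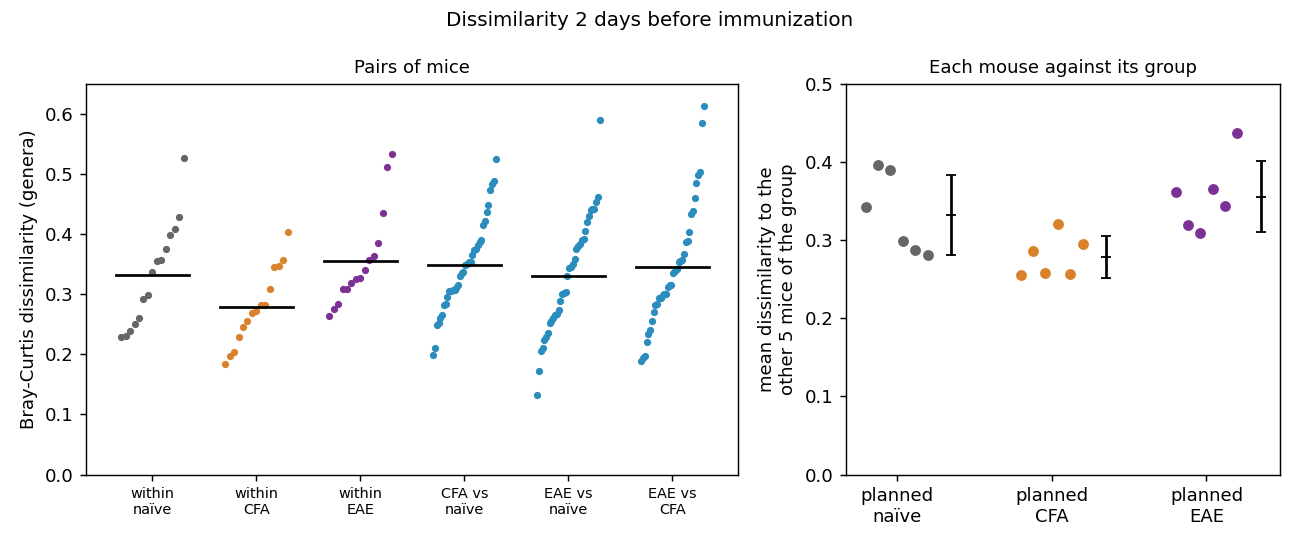
Bray-Curtis dissimilarity of genus percents for pairs of mice within and between groups (left, a point per pair, line at the mean) and the mean of each mouse to the other 5 of its group (right, a point per mouse, bar at mean ± SD of 6 mice). The mean of the CFA mice is the lowest at the right, at 0.279 ± 0.0267, with CFA mouse 546 (0.321) above 3 naïve and 2 EAE mice, and pairs between groups run from 0.133 to 0.613, a wider range than pairs within groups (0.184 to 0.533).

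Diversity did not separate the groups beyond the spread between mice. The Shannon metric of ASVs, which rises with the number and evenness of ASVs, was 4.01 ± 0.199 in naïve, 4.34 ± 0.308 in CFA and 4.16 ± 0.193 in EAE mice (SD, n = 6). CFA minus naïve mice was 0.33 (two-sided exact permutation test, p = 0.0563, adjusted p = 0.487 over 9 tests of diversity). Mice held 26.5 ± 3.62, 28.7 ± 6.50 and 26 ± 3.69 genera and 82.7 ± 17.3, 99.8 ± 26.2 and 85.8 ± 13.8 ASVs, and adjusted p-values of all 9 exact permutation tests lay between 0.487 and 0.875. Within the CFA group, mice 546 and 547 held 22 and 19 genera and the other 4 between 31 and 34. With merged sequences the CFA and naïve means of the Shannon metric were 2.33 and 2.23.

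**Figure D5:**
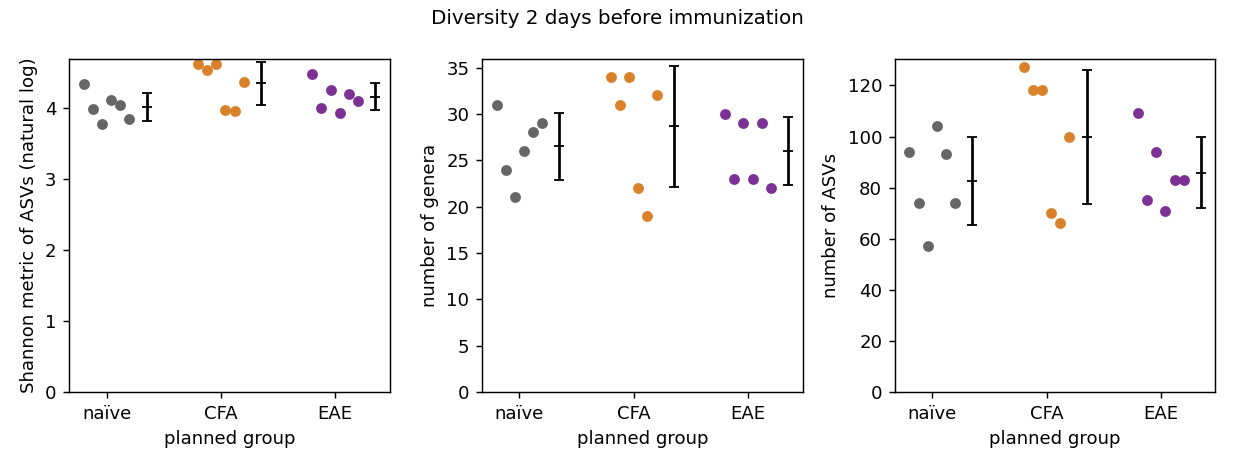
Shannon metric of ASVs, number of genera and number of ASVs (vertical axes) at -2 dpi, a point per mouse and a bar at mean ± SD of the 6 mice of a planned group. The groups overlap in all panels, and CFA mice 546 and 547 lie apart from the other 4 CFA mice, with 22 and 19 genera.

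Among the taxa that the study follows after immunization, Peptostreptococcaceae, here Romboutsia, was uneven at the start, with 0.111% ± 0.272 in naïve, 2.85% ± 1.70 in CFA and 0.528% ± 0.842 in EAE mice (SD, n = 6). Its edgeR adjusted p was 0.228 between CFA and naïve mice (exact permutation p = 0.00433). It was 0.00354 without naïve mouse 558, the only naïve mouse with counts, which left the naïve group at 0. Of 8 such families, 7 were seen at -2 dpi and edgeR called 0 in each comparison, where 8.7%, 0% and 8.7% of all families were called for CFA against naïve, EAE against naïve and EAE against CFA mice. These families summed to 74.9% ± 5.12 of counts in naïve, 81.9% ± 3.04 in CFA and 75.4% ± 7.84 in EAE mice (SD, n = 6). Their median log2 fold change was 0.50 for CFA against naïve, 0.04 for EAE against naïve and -0.73 for EAE against CFA mice, beside 0, 0 and -0.60 for all families tested. Of 14 such genera, 12 were seen, and Muribaculum alone was called, lower in CFA than in naïve mice, 1 of 12 beside 7.69% of all genera in that comparison, with medians of 0.48, -0.60 and -0.43 beside 0, 0 and -0.24 for all genera tested. Mycoplasma had no count at -2 dpi.

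Butyrate producers had their highest mean sum in CFA mice, a difference that was not tested. Sums ranged from 4.29% to 16.2% in naïve, 6.28% to 14.7% in CFA and 3.00% to 14.2% in EAE mice. Anaerostipes alone averaged 4.27% in CFA and 0% in naïve mice. Coprococcus/Eubacterium_F, Eubacterium and Flavonifractor had lower means in CFA than in naïve mice, and the other genera of the list seen had higher ones. The 8 genera of this list seen (Roseburia, Coprococcus, Coprococcus/Eubacterium_F, Anaerostipes, Intestinimonas/Ruminiclostridium_9, Flintibacter, Flavonifractor and Eubacterium; Stomatobaculum was not on it) took 7.43% ± 4.94 in naïve, 12.3% ± 3.20 in CFA and 7.34% ± 4.03 in EAE mice (SD, n = 6), and only Anaerostipes among them was called, higher in CFA and in EAE than in naïve mice, 1 of 8 beside 7.69% and 1.54% of all genera. Their median log2 fold change was 0.60 for CFA against naïve mice and 0.05 for EAE against naïve mice, beside 0 for all genera, and -0.75 beside -0.24 for EAE against CFA mice. Among lactic acid bacteria, 0 of 2 genera were called by edgeR, and among Erysipelotrichaceae 0 of 4, beside 7.69%, 1.54% and 3.08% of all genera in the comparisons in the order above. The 3 Bacteroidales genera summed to 17.4% ± 4.03, 15.8% ± 3.49 and 19.0% ± 6.62, with Muribaculum, between CFA and naïve mice, as the 1 call of 3. The 2 wall-less genera of Mollicutes were not called, and their sum was at most 0.340% in a naïve, 1.79% in a CFA and 1.17% in an EAE mouse. Reads named Eukaryota, which are not bacteria and whose source was not tested, made up 0.0364% of counts in CFA mouse 548 and 0 elsewhere, and Pseudomonas, common in water and reagents, had no count.

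Some differences of -2 dpi were seen again in later samples and others were not. Akkermansia had counts in 20 of 24 later naïve samples, in 0 of 23 later CFA samples and in 16 of 23 later EAE samples. Anaerostipes had counts in 23 of 23 later CFA samples, in 4 of 24 later naïve samples and in 12 of 23 later EAE samples. Named by merged sequence, Anaerostipes was in 23, 0 and 8 of these samples. At 8 dpi, 5 of 6 EAE mice held Anaerostipes by the names as given, and 2 of 6 held it when named by merged sequence. By the names as given, Stomatobaculum had counts in 19 of 23 later CFA samples and in no later naïve or EAE sample. This name also depends on the letters of the primer, so its absence is not absence of its merged sequence. Romboutsia, in contrast, was counted in all 6 CFA mice at -2 dpi and in 0 of 23 later CFA samples, while 18 of 23 later EAE samples held it. Naïve mouse 560, without Akkermansia at -2 dpi, had it in 4 of 4 later samples at 10.0% to 31.6%. EAE mouse 550 held 8.74% Akkermansia and 8.84% Romboutsia at 8 dpi. The later samples of CFA and EAE mice come after treatment, so time and treatment cannot be told apart in them, and EAE mice carry other numbers in the labels from 14 dpi on.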

How the data were processed

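Fecal 16S amplicons (V3 to V4) were sequenced by the authors, who inferred ASVs with DADA2 and named them by hand from several databases. The authors deposited read counts for each ASV in each sample, neither rarefied nor scaled, with names and a sample table of other values (treatment, day, score). Samples were grouped by the labels. Members, lists and tests were chosen with earlier results of these data known. Lists were matched to genus names that hold the listed name.

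Counts were summed by family and genus and tested with edgeR 4.0.16 (quasi-likelihood, TMMwsp factors from genus counts) under R 4.3.3. A single fit held 88 samples in 15 groups by day and treatment; a CFA sample with a total of 0 was left out. Only taxa present in 3 or more samples were tested, with Benjamini-Hochberg adjustment per rank and comparison and a threshold of 0.05. Where a group was at 0, a fold is a bound against 3 counts per library, from the mean of the other group with its mice at 0 included. Dissimilarity, spread and diversity were compared by exact permutation over mice (924 splits) using SciPy 1.17.1, pandas 2.3.3, numpy 2.4.6 and, for figures, matplotlib 3.10.9 (Python 3.11.15). The edgeR fit, the permutation test of means and the dissimilarity test were tried on simulated data, and DESeq2 was not. The edgeR simulation set no group to 0, so it does not cover calls of taxa at 0 in a whole group.

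Named were families at or above 1% in any group, called or absent families and genera, core genera, called sequences and list members; Romboutsia, Coprococcus/Eubacterium_F, Eubacterium, Roseburia, the absent merged sequences and the genera of a single group were named with their values seen. Alternatives were DESeq2 1.42.0 (poscounts), total counts only, no filter, only the 18 samples in the fit, permutation on percents, merged sequences, rarefying to 36075 counts, Jaccard, families or ASVs for dissimilarity, and leaving out each mouse. Merged sequences in the fit of 18 samples or by permutation, genera named by merged sequence, and leaving out mice for spread, diversity, absence and core were chosen after seeing the data. The 2 water controls of the labels were not analysed here, and precision is limited by 6 mice per group and unknown cages.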

Additional observations from a re-analysis of the deposited data

Results flagged for a closer look

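In groups of 6 mice, an extreme value was tested for its gap to the nearest other mouse, over 54 groups of values of taxa with counts in all 6 mice. Chance marks about 1 in 20 groups, and 3 of 54 were marked, all for naïve mouse 559. This mouse held 41.8% Lachnospiraceae, where the next naïve mouse had 20.9%. Its Oscillospiraceae, which are all Oscillibacter here, stood at 1.64% against 0.789% in the next mouse, and the family and the genus are thus the same value.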

How the results depend on the processing

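No paired analysis was possible because mouse numbers are not shared between the groups compared. In the order CFA against naïve, EAE against naïve and EAE against CFA mice, a fit of only the 18 samples called 1, 0 and 1 families and 2, 0 and 1 genera, DESeq2 4, 2 and 4 families, 10, 10 and 12 genera and 152, 106 and 156 ASVs, and permutation 0 families and genera. In the fit of 18 samples Anaerostipes and Akkermansia were still called between CFA and naïve mice, and adjusted p-values there rose to 0.0636 for Stomatobaculum and Peptococcus-rc4-4 and 0.109 for Muribaculum. Total counts only called 0, 6 and 3 ASVs, merged sequences 11, 1 and 1, and these in the fit of 18 samples 22, 1 and 17. Merged sequences gave 7 absent and 2 core sequences in place of 2 and 15 ASVs. The dissimilarity between minus within groups became 0.061, -0.0173 and 0.0454 with merged sequences, 0.0848 and 0.0412 with Jaccard for the comparisons with CFA mice, and 0.0762 and 0.0422 with Jaccard on genera named by merged sequence, all 6 with CFA mice past the threshold. With ASVs as deposited, EAE against CFA turned to -0.00122 (exact permutation test, adjusted p = 0.526).

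Leaving out each mouse gave 2 to 3, 0 to 1 and 2 families, 4 to 6, 0 to 3 and 1 to 5 genera, and dissimilarity differences of 0.0336 to 0.0614, -0.019 to -1.45e-05 and 0.0119 to 0.0578. The highest came without naïve mouse 560 (exact permutation test, adjusted p = 0.00649) and without EAE mouse 550 (adjusted p = 0.0195), both past the threshold. Without naïve mouse 558, 1 family was called between EAE and naïve mice, Peptostreptococcaceae, of which mouse 558 was the only naïve mouse with counts. Spread differences ran from -0.0794 to -0.0216, past the threshold without CFA mouse 546 or naïve mouse 561, 562 or 563, from -0.0171 to 0.0555, below 0 without EAE mouse 557 or naïve mouse 563 (-0.00226), and from 0.0366 to 0.101. EAE minus naïve mice ran from -1.6 to 0.4 genera, above 0 without EAE mouse 551 or 555 (0.1), EAE mouse 557 (0.3) or naïve mouse 558 (0.4), and from -1.97 to 7.43 ASVs, below 0 without EAE mouse 550 (-1.47) or naïve mouse 560 (-1.97). Absent families numbered 1 to 2 (Peptostreptococcaceae without naïve mouse 558), absent genera 3 to 4, absent ASVs 0 to 2 (0 without naïve mouse 558, 561, 562 or 563), and core ASVs 15 to 25 (25 without naïve mouse 563). Causes were not tested.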
